A study of Mus musculus with 6 samples.

Results

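Forkhead (FOX) and SOX proteins are 2 families of DNA-binding transcription factors, and 64 of the 55421 genes in the deposited table belong to them by symbol, 45 forkhead genes and 19 SOX genes. Members were chosen by gene symbol alone, as Fox followed by a letter and a number, or Sox followed by a number. No measured value enters that rule, but the pair of families was picked from earlier KO-against-WT results of these same 6 libraries, with Foxp2 and Sox9 as its leading genes. The KO-against-WT values below are therefore descriptions, and the adjusted p beside a gene only states whether its row passed the fit across all genes.

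Tongue epithelium was profiled from 6 mice, 1 library each, by a 3'-end mRNA kit (QuantSeq), in which each mRNA gives 1 tag at its polyadenylated end. The 3 KO mice had the genotype K14CreERT2 IRE1 F/F, in which floxed alleles of Ire1α (gene Ern1, which detects misfolded proteins in the endoplasmic reticulum and splices Xbp1 mRNA) meet a tamoxifen-inducible Cre driven by the promoter of keratin 14, a basal keratinocyte keratin, so recombination is aimed at keratinocytes and not at other cells of the peeled tissue. The 3 WT mice were littermates with the genotype IRE1F/F, the same floxed alleles without Cre. Both groups received tamoxifen by injection on each of 4 days and were harvested on day 5, so Cre activity and loss of Ire1α cannot be told apart, and the labels give no age. The enzyme-loosened lining was peeled off after 10 minutes at 37 °C.

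A forkhead protein binds DNA through a winged-helix domain, and a SOX protein bends DNA through an HMG box. Family members can open closed chromatin and set cell identity, and many are used again and again in skin and its appendages: in mice, Foxn1 is the gene mutated in nude mice, Sox9 is needed for hair follicle stem cells and Sox2 marks progenitors of the tongue lining and taste buds. Others read signals, such as the FoxO factors, which insulin signalling through AKT keeps out of the nucleus, or act in the cell cycle, such as Foxm1.

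Libraries held 4606309 to 6286153 reads. Values are normalised counts, tags scaled by the authors with 1 factor per library. The factors did not follow the read totals alone: 1 read counted as 0.873 in WT replicate 2 (5516801 reads) and 0.942 in WT replicate 1 (5911884 reads). The values are not divided by gene length, since length does not multiply the tags of an mRNA. Of the 64 members, 24 were at 0 in every library, 14 were above 0 but too low to test, and 26 passed the filter of at least 10 in at least 3 libraries (18 forkhead and 8 SOX genes). Ern1 was at 78.0, 117 and 123 in KO replicates 1 to 3, against 102, 105 and 77.1 in WT replicates 1 to 3, and did not pass (difference 0.15 ± 0.24 on the log2 scale (SE), limma adjusted p = 0.847); the labels do not name the deleted exons, so a 3' tag need not report the deletion. Keratinocyte genes were abundant, as the labelled cell type implies: the summed level of 15 suprabasal keratinocyte markers was 534883 to 781732 in KO and 523008 to 755793 in WT.

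Over the 26 tested members, Sox9 rose in KO and Foxp2 and Sox6 fell, and 23 did not pass. That is 11.5% of the tested members, where 1.80% of all 10987 tested genes passed (limma, Benjamini-Hochberg adjusted p below 0.05), 1.22% higher and 0.583% lower in KO. Sox9 and Foxp2 led the choice of these families, so the higher share follows in part from that choice. The 3 called members are those listed in the authors' deposited table of called genes, where Sox9 has a log2 fold change of 1.99, Foxp2 -1.80 and Sox6 -0.96. The median log2 fold change was -0.15 over the 18 forkhead genes and 0.17 over the 8 SOX genes, against -0.01 over all tested genes. The median size of a change, with its sign left out, was 0.25 over the members and 0.24 over all tested genes. By family that size was 0.22 over the forkhead genes and 0.43 over the SOX genes.

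**Figure D1:**
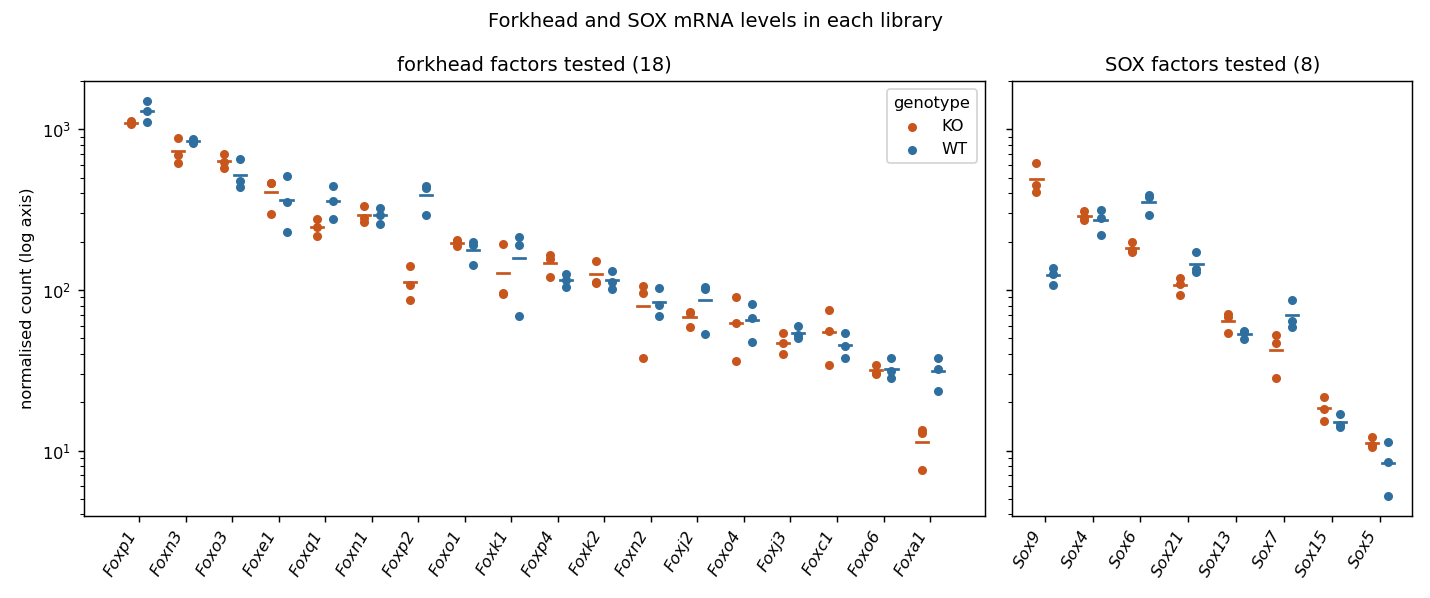
Normalised count (log axis) of each of the 26 tested members, KO left of WT; each point is 1 library and each short line a group mean. Sox9, Foxp2, Sox6 and Foxa1 stand out by the gap between the groups, while the points of most other members intermingle.

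**Figure D2:**
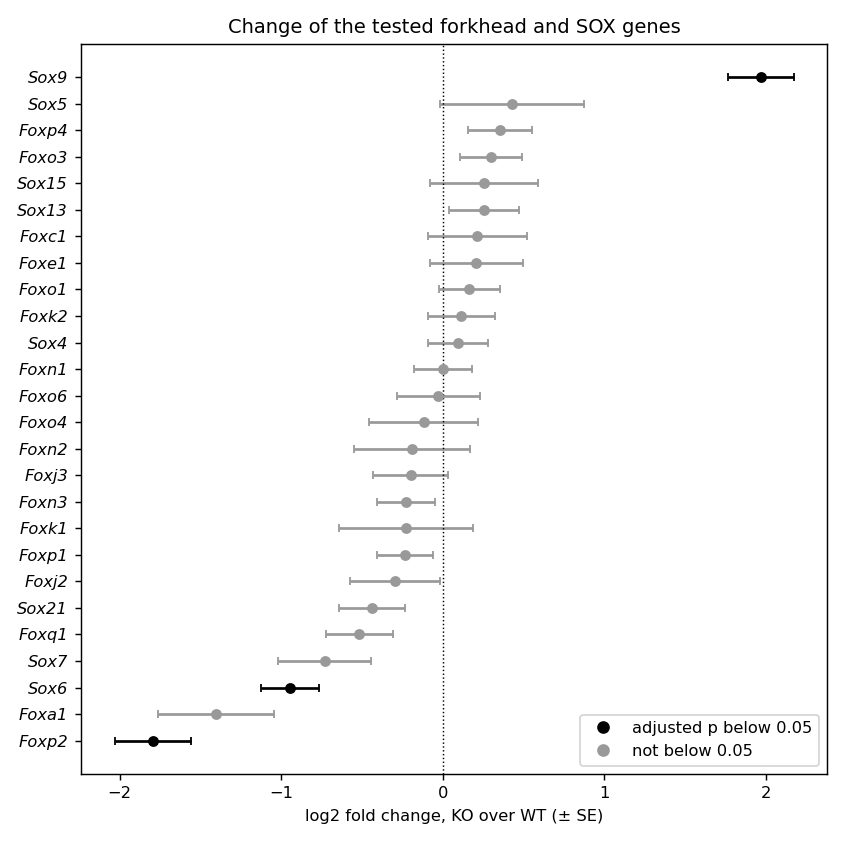
Log2 fold change of KO over WT (x axis, bars are ± SE of the limma fit) for the 26 tested members, ordered by value. Black points passed the fit across all genes: Sox9 at 1.97, Sox6 at -0.95 and Foxp2 at -1.79; grey points did not, including Foxa1 at -1.40.

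Sox9 (ENSMUSG00000000567; chromosome 11, 112782224 to 112787760, plus strand, GRCm38, GENCODE M21) encodes a SOXE factor known for cartilage formation and hair follicle stem cells. It was at 408, 614 and 449 in KO replicates 1 to 3, against 107, 126 and 137 in WT replicates 1 to 3. Every KO library was far above every WT library. The means were 491 ± 109 in KO and 123 ± 14.97 in WT (SD, n = 3 mice each), a ratio of 3.98. The log2 fold change was 1.97 ± 0.20 (SE), with a limma adjusted p = 0.00115. It passed whichever library was left out (highest limma adjusted p = 0.0125).

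Foxp2 (ENSMUSG00000029563; chromosome 6, 14901349 to 15441977, plus strand, GRCm38, GENCODE M21) encodes a forkhead repressor best known from human speech disorder and brain circuits. It was at 86.7, 108 and 141 in KO replicates 1 to 3, against 434, 442 and 291 in WT replicates 1 to 3. Every KO library was below every WT library, and WT replicate 3 was the WT library nearest to KO. The means were 112 ± 27.4 in KO and 389 ± 85.1 in WT (SD, n = 3 mice each), so WT was 3.48 times KO. The log2 fold change was -1.79 ± 0.24 (SE), with a limma adjusted p = 0.00477, and it too passed whichever library was left out (highest limma adjusted p = 0.0300).

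Sox6 (ENSMUSG00000051910; chromosome 7, 115470872 to 116038796, minus strand, GRCm38, GENCODE M21) encodes a SOXD factor, which has no activation domain of its own and works with Sox5 and Sox9 in cartilage. It was at 198, 172 and 176 in KO replicates 1 to 3, against 379.8, 388 and 295 in WT replicates 1 to 3. The KO libraries were close to each other and all below WT. The means were 182 ± 14.0 in KO and 354 ± 51.5 in WT (SD, n = 3 mice each), so WT was 1.94 times KO, with a log2 fold change of -0.95 ± 0.18 (SE) and a limma adjusted p = 0.0275. This call is the least firm of the 3: leaving out WT replicate 3 gave a limma adjusted p = 0.0177, but each other library left out ended it, with limma adjusted p of 0.0744, 0.0719 and 0.130 without KO replicates 1 to 3 and 0.0981 and 0.126 without WT replicates 1 and 2. It also ended when the form of the library name entered the fit (limma adjusted p = 0.0681; WT replicates 1 and 2 and KO replicate 1 are named by a number and the others by a letter, and what this marks is not given) and with every library scaled to the same total (0.0554).

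**Figure D3:**
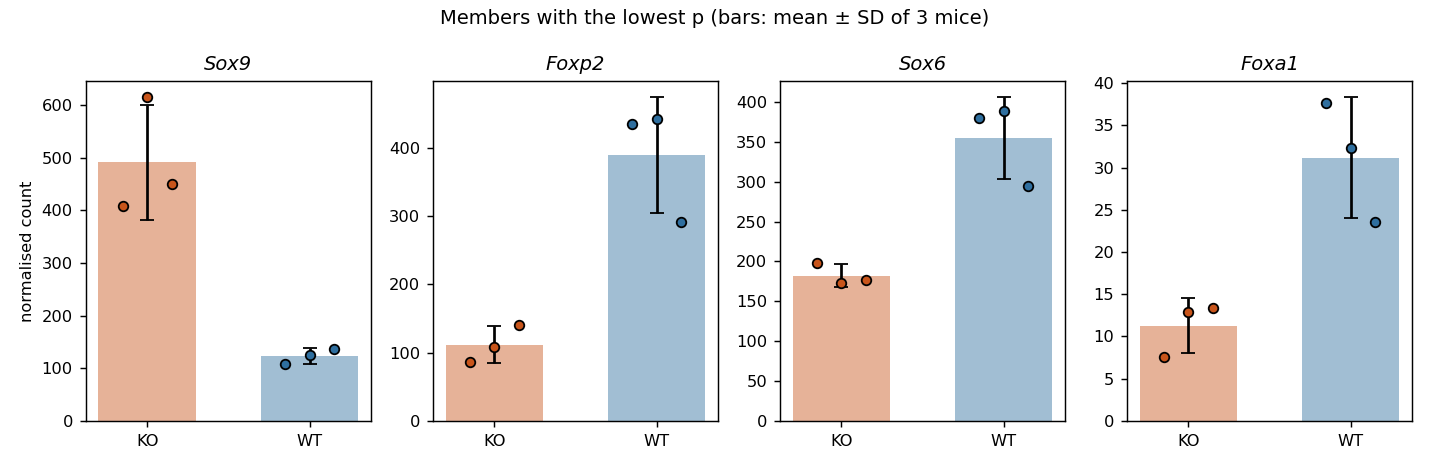
Normalised count of the 4 members with the lowest p, KO left of WT; bars are means, error bars SD over 3 mice and points single libraries, on linear axes from 0. Sox9 is higher in all KO libraries; Foxp2, Sox6 and Foxa1 are lower in all KO libraries, and Foxa1 did not pass across all genes.

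Foxa1, a pioneer factor of endoderm-derived tissues that opens chromatin for other factors, was low throughout, at 7.58, 12.9 and 13.3 in KO replicates 1 to 3, against 37.7, 32.3 and 23.5 in WT replicates 1 to 3. The groups did not overlap. WT was 2.76 times KO, by means of 11.3 ± 3.21 in KO and 31.2 ± 7.16 in WT (SD, n = 3 mice each), and the log2 fold change of -1.40 ± 0.36 (SE) did not pass (limma adjusted p = 0.0917; 0.0839 with edgeR and 0.0721 with DESeq2 on recovered reads). Sox7, a SOXF factor of blood vessels, was at 28.2, 46.5 and 52.4 in KO replicates 1 to 3, against 86.7, 58.5 and 64.0 in WT replicates 1 to 3; the fitted difference was -0.73 ± 0.29 (log2, SE) and missed the threshold (limma adjusted p = 0.283). Its groups are separate but KO replicate 3 lies close to WT replicate 2. Sox21, a SOXB2 repressor needed in mice for the hair shaft cuticle, also had every KO library below every WT library, at 93.1 to 119 in KO and 129 to 173 in WT (difference -0.44 ± 0.20 on the log2 scale (SE), limma adjusted p = 0.380).

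Of the 26 tested members, 1 had every KO library above every WT library (Sox9) and 5 had every KO library below (Foxp2, Sox6, Foxa1, Sox7 and Sox21). Over all tested genes 9.84% had all KO libraries above and 9.25% all KO libraries below. Foxq1, mutated in satin mice with their silky hair, came close to that pattern, at 248, 277 and 218 in KO replicates 1 to 3, against 447, 357 and 276 in WT replicates 1 to 3. Only KO replicate 2 and WT replicate 3 touch, and the log2 fold change of -0.52 ± 0.21 (SE) did not pass (limma adjusted p = 0.306).

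The promoters of Sox6 and Foxa1, both with all KO libraries below WT, are shown because they hold short matches to the families' own binding letters. Sox7 and Sox21, with the same order of groups, are not among the members with a match. Since the promoters shown were picked for their matches, no link between a match and a lower level in KO can be read from them. The RefSeq promoter table (build GRCm38.p6), 250 bases before to 50 after each gene's start, held windows for 41 of the 64 members, 17 of them tested, with Sox9 and Foxp2 not among them. The windows shown are those of the most upstream start in the table, 1 of 6 starts for Sox6 and the single one for Foxa1. In GENCODE M21 Foxa1 spans 57540628 to 57546916, so its window lies inside that gene model, downstream of where that model starts. Capitals mark matches on either strand to GTAAACA, a forkhead core, and to ACAAAG or ACAATG, SOX cores. TGACGTGG, a core bound by the spliced Ire1α product Xbp1, was searched as well.
Sox6, chr7:116038695-116038994, minus strand: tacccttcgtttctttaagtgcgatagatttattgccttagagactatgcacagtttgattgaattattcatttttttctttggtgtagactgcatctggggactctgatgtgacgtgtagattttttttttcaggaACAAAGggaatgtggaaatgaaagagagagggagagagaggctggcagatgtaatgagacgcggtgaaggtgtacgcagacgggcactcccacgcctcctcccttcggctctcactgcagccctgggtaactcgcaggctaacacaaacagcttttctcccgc
Foxa1, chr12:57546062-57546361, minus strand: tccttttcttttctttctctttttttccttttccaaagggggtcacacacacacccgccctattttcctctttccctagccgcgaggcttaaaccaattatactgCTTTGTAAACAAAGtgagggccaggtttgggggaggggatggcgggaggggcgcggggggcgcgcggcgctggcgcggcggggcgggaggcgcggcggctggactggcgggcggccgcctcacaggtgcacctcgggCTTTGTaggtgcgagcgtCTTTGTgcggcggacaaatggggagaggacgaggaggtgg

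The Sox6 window holds 1 match, ACAAAG at 113 bases before the start. The Foxa1 window holds 5. A forkhead match, with its first base 141 bases before the start, overlaps a SOX match at each end, and 2 more SOX matches lie near the start. GTAAACA was found in 2 of the 41 member windows (Foxa1 and Sox12) and in 3.52% of the 27025 genes' windows. ACAAAG was found in 9 of the 41, among them Foxp1, Foxn3 and Foxo3, and in 18.7% of all windows. ACAATG was found in 2 of the 41 and 12.8% of all windows, and TGACGTGG in 1 of the 41, Sox1, and 0.599% of all windows. A match is a description of letters and not a site of binding.

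Within the SOX family, the summed SOX level was 1169, 1302 and 1166 in KO replicates 1 to 3, against 1154, 1080.3 and 932 in WT replicates 1 to 3. Every KO sum was above every WT sum, by a narrow margin, and the make-up differed. That order rests on Sox9 alone: with Sox9 left out, every KO sum was below every WT sum. Members listed at 0, such as Sox2, add nothing to these sums, whether or not their mRNA was present. A larger Sox9 value also lowers the share of every other member. Sox9 held 34.9%, 47.2% and 38.5% of the SOX sum in KO replicates 1 to 3, against 9.31%, 11.6% and 14.7% in WT replicates 1 to 3. Sox6 held 16.96%, 13.2% and 15.1% in KO replicates 1 to 3, against 32.9%, 35.9% and 31.7% in WT replicates 1 to 3. Sox4, a SOXC factor of progenitors, held 20.8% to 26.4% in KO and 23.7% to 27.5% in WT. The ratio of Sox9 to Sox6 tags was 2.06, 3.57 and 2.55 in KO replicates 1 to 3, against 0.283, 0.324 and 0.465 in WT replicates 1 to 3. Every KO library thus held more Sox9 than Sox6 tags and every WT library fewer.

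**Figure D4:**
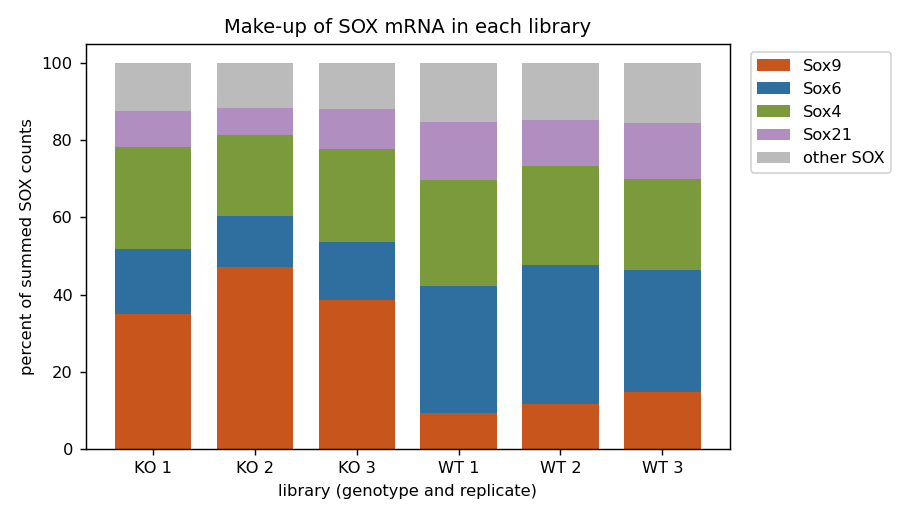
Percent of the summed SOX normalised counts held by Sox9, Sox6, Sox4, Sox21 and the other SOX genes in each library (KO replicates left, WT replicates right). Sox9 holds 34.9% to 47.2% in KO and 9.31% to 14.7% in WT, and the Sox6 band is narrower in KO.

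The other tested SOX genes had overlapping groups. Sox4 was at 288 ± 19.1 in KO and 272 ± 48.4 in WT (SD, n = 3 mice each; log2 fold change 0.09 ± 0.19 (SE)). Sox13, a SOXD relative of Sox6, was at 54.3 to 70.4 in KO and 49.6 to 55.6 in WT (log2 fold change 0.26 ± 0.22 (SE)). Sox5, the closest relative of Sox6, was near the lower limit of testing, at 10.5 to 12.1 in KO and 5.22 to 11.3 in WT. Sox15, the single SOXG factor, was at 15.2 to 21.7 in KO and 14.0 to 16.96 in WT. The limma adjusted p of these 4 genes ran from 0.680 to 0.884, and whether Sox6 differs from the other SOXD genes in its change was not tested.

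Among the forkhead genes, the P subfamily held members of both signs. Foxp1, which in mouse hair follicles is tied to stem cell quiescence, was at 1075, 1132 and 1095 in KO replicates 1 to 3, against 1508, 1298 and 1110.1 in WT replicates 1 to 3 (difference -0.23 ± 0.17 on the log2 scale (SE), limma adjusted p = 0.619). WT replicate 3 lies within the KO range. Foxp4 was at 121 to 166 in KO and 104 to 125 in WT (difference 0.36 ± 0.20 on the log2 scale (SE), limma adjusted p = 0.485), and Foxp3, the factor of regulatory T cells, was at 0 in every library. Foxp2 held 6.76%, 7.71% and 10.1% of the FoxP sum in KO replicates 1 to 3, against 21.2%, 23.8% and 19.1% in WT replicates 1 to 3. FoxP proteins bind DNA as dimers with each other.

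The FoxO factors, held in the cytoplasm by AKT and active when insulin or growth factor signalling is low, did not pass. Foxo3 was at 579, 702 and 625 in KO replicates 1 to 3, against 650.3, 480 and 439 in WT replicates 1 to 3 (difference 0.30 ± 0.19 on the log2 scale (SE), limma adjusted p = 0.563). WT replicate 1 lies within the KO range. Foxo1 was at 197 ± 8.997 in KO and 178 ± 30.4 in WT, Foxo4 at 62.7 ± 26.9 in KO and 65.4 ± 17.6 in WT, and Foxo6 at 31.6 ± 2.34 in KO and 32.4 ± 4.71 in WT (SD, n = 3 mice each). In a list of 24 FOXO regulators and targets, 23 were tested, 0 rose, 1 fell and 22 did not pass, with a median log2 fold change of 0.08. The gene that fell was Cdkn1b, which encodes the cell cycle inhibitor p27, at 107, 88.8 and 82.9 in KO replicates 1 to 3, against 216, 175 and 157 in WT replicates 1 to 3 (difference -0.96 ± 0.20 on the log2 scale (SE), limma adjusted p = 0.0432), a call that held in 1 of the 6 fits without 1 library (highest limma adjusted p = 0.184). Trib1, a pseudokinase, had a log2 fold change of 0.84 and did not pass (limma adjusted p = 0.151).

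Foxn1, which in mice and humans drives keratinocyte differentiation and the thymus, was level between the groups: 264 to 334 in KO and 258 to 326 in WT, means of 293 ± 36.9 and 293 ± 33.9 (SD, n = 3 mice each), with a log2 fold change of 0.00 ± 0.18 (SE). Foxn3, a repressor linked to cell cycle checkpoints, was at 697, 619 and 888 in KO replicates 1 to 3, against 844, 878 and 828 in WT replicates 1 to 3 (difference -0.23 ± 0.18 on the log2 scale (SE), limma adjusted p = 0.650). KO replicate 3 was above all WT libraries and the other KO libraries below them. Foxe1, needed in mice for the palate and thyroid, was at 299 to 467 in KO and 231 to 512 in WT, a wide spread within both groups (limma adjusted p = 0.819). Foxc1, a factor of the eye and of hair follicle stem cell quiescence in mice, was at 34.3 to 74.98 in KO and 37.9 to 53.7 in WT (limma adjusted p = 0.828).

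Foxk1 and Foxk2, repressors of starvation and autophagy genes, differed in their spread. Foxk1 was at 94.3, 192 and 96.3 in KO replicates 1 to 3, against 215, 189 and 69.2 in WT replicates 1 to 3. It was thus high in KO replicate 2 and WT replicates 1 and 2 and low in the other libraries, with a highest-to-lowest ratio of 2.04 in KO and 3.10 in WT. That WT ratio was the widest of any tested member, and the log2 fold change of -0.23 ± 0.41 (SE) did not pass (limma adjusted p = 0.869). Foxk2 stayed within 111 to 152 in KO and 102 to 131 in WT (limma adjusted p = 0.872). Foxn2 had the widest KO ratio, 2.79, at 37.9, 95.7 and 106 in KO replicates 1 to 3 and 69.2 to 103 in WT (limma adjusted p = 0.875). Foxj2 was at 58.6 to 72.4 in KO and 53.5 to 105 in WT, and Foxj3 at 40.1 to 54.3 in KO and 49.9 to 59.3 in WT (limma adjusted p = 0.712 and 0.785).

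Of the 14 members above 0 that were too low to test, Sox12, a SOXC factor, was highest, at 8.67, 5.17 and 6.67 in KO replicates 1 to 3 and 7.54, 19.2 and 10.4 in WT replicates 1 to 3; it lay just outside the filter and Sox5 just inside. Foxm1, which drives genes of mitosis, was at 6.03 to 7.62 in KO and 3.77 to 6.98 in WT, 36 reads in all. Foxn4 was at 0.953 to 9.48 in KO and 0 to 3.49 in WT. Foxa2, Foxd2 and Foxa3 held 5 or 6 reads over all libraries, and the remaining 8 held 1 to 5 reads, so no difference was detectable in them at this depth. A count of 0 allows up to 3 reads, or 2.59 to 3.92 on the normalised scale, which covers counting error alone. Of 18 listed FOXM1 targets of mitosis 12 were tested, 0 rose, 0 fell and 12 did not pass, with a median log2 fold change of -0.50. Their summed level was 756 to 1135 in KO and 1205 to 1694 in WT. Cenpf, a kinetochore protein, was at 102 ± 30.9 in KO and 217 ± 34.4 in WT (SD, n = 3 mice each; limma adjusted p = 0.0589) and Cenpa, the centromere histone, at 31.5 ± 14.97 in KO and 56.7 ± 6.74 in WT (limma adjusted p = 0.228).

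The 24 members at 0 in every library included Sox2, a SOXB1 factor of the tongue lining, Foxc2, Foxf1, Foxl1, Foxj1 of ciliated cells, Foxi1 of ionocytes, Foxs1, Foxp3 and the SOXF factor Sox18. For several of them a listed 0 cannot be read as absence of the mRNA. The 3' end of Sox2 lies inside Sox2ot, a long non-coding gene on the same strand (chromosome 3, 34104270 to 34682619, GRCm38, GENCODE M21), and Sox2ot was at 119, 84.5 and 106 in KO replicates 1 to 3, against 114, 113 and 96.6 in WT replicates 1 to 3. The 3' ends of Foxc2, Foxf1 and Foxl1 lie inside Gm20388, a gene model spanning 119910841 to 124345722 on the same strand of chromosome 8. Gm20388 was at 589 to 721 in KO and 683 to 704 in WT. These overlaps are with the span of the other gene, introns included. Sox2, Foxc2, Foxf1 and Foxl1 share 0% of their exon bases with exons of a same-strand gene. Whether tags were counted over exons or over whole genes is not known, so the overlap need not account for these zeros. The range of Gm20388 also takes in Tubb3, a tubulin on the same strand, and Acta1, skeletal actin on the opposite strand, both listed at 0. Both were picked from the genes at 0 in the marker lists below, and the other genes in that range were not examined.

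Over all protein-coding genes of the table, 68.2% of the 1204 whose last 500 bases lie within another listed gene on the same strand were at 0 in all libraries, against 30.6% of the 3180 with such an overlap on the opposite strand alone and 22.3% of the 17592 with none. Among the members, 6 of 7 with a same-strand overlap were at 0, among them Sox1, Sox2, Foxc2, Foxf1 and Foxl1, with Foxm1 as the exception, against 2 of 3 with an opposite-strand overlap and 16 of 54 with none. Overlap here means lying within the span of the other gene, introns included, and not sharing its exons. The gene around Sox1, Sox1ot, was itself near 0. The part of the overlap in these zeros was not tested, and the authors' annotation may differ from the one used here. Of the 3 called genes none shares an exon or its 3' end with another gene of the annotation. Foxq1, Sox4 and Sox21 share 66.1%, 54.6% and 18.8% of their exon bases with a gene on the opposite strand, and the strand setting of the counting is not given in the sources used here.

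**Figure D5:**
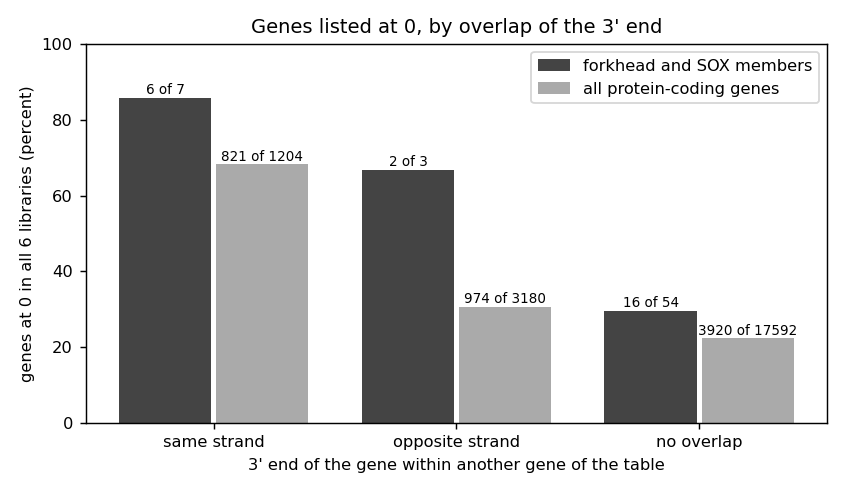
Percent of genes at 0 in all 6 libraries, for the forkhead and SOX members (dark) and all protein-coding genes (light). Genes are grouped by whether their last 500 bases lie within the span of another gene of the table, introns included. Same-strand overlap goes with 85.7% of members and 68.2% of all genes at 0, against 29.6% and 22.3% without overlap.

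Genes that act with the families were read from lists. Of 18 cofactors of forkhead and SOX proteins, such as Ctbp, Tle and NuRD subunits, 15 were tested, 0 rose, 0 fell and 15 did not pass (median log2 fold change 0.06); Pou3f1, a POU factor, was at 30.6 ± 12.2 in KO and 9.80 ± 3.91 in WT (SD, n = 3 mice each; limma adjusted p = 0.102), and Gatad2a had a log2 fold change of 0.30. Of 12 TCF/LEF factors and WNT readouts, 8 were tested, 0 rose, 1 fell and 7 did not pass (median -0.36). The gene that fell was Lef1, an HMG-box relative of the SOX factors that acts with β-catenin, at 63.7 ± 7.06 in KO and 156 ± 11.8 in WT (SD, n = 3 mice each; difference -1.28 ± 0.19 on the log2 scale (SE), limma adjusted p = 0.00838), and it passed whichever library was left out. Its relative Tcf7l2 had -0.42 (limma adjusted p = 0.362). Of 14 Hedgehog pathway genes, 9 were tested and 0 passed (median -0.12); the lowest p were those of the co-receptor Cdon, at 37.7 ± 4.49 in KO and 65.5 ± 4.49 in WT (limma adjusted p = 0.127), and the inhibitor Hhip (limma adjusted p = 0.392). Of 12 cartilage targets of SOX9, 1 was tested, Hapln1 (log2 fold change -0.56, limma adjusted p = 0.874), and their summed level was 18.1 to 81.0 in KO and 5.22 to 96.1 in WT, with Acan at 0.

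Several members are also known from other cells of the tongue, and fewer cells of a type and less RNA per cell cannot be told apart in these bulk samples. Of 12 basal keratinocyte markers 2 of 12 tested rose, 0 fell and 10 did not pass (median log2 fold change 0.71): Itgb4, a hemidesmosome integrin, by 1.16 (limma adjusted p = 0.0194), and Pdpn, podoplanin, by 2.16 (limma adjusted p = 0.0245), calls that held in 4 and 2 of the 6 fits without 1 library (highest limma adjusted p = 0.0776 and 0.122). The 12 markers summed to 37500.5 to 64627 in KO and 26800.3 to 29056 in WT, higher in every KO library, as was Sox9. Within KO the order differed: the sum was highest in replicate 1, where Sox9 was lowest (408). The part of basal keratinocyte RNA in the Sox9 value was not tested. Among 15 suprabasal markers, 14 were tested and 0 passed (median 0.03), with the lowest p for Dsg1a and Dsc2, desmosomal cadherins (-0.56 and 0.46, limma adjusted p = 0.197 and 0.225).

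For the fibroblast list of 12 genes, 3 were tested and 1 fell, Dcn (decorin; log2 fold change -2.06, limma adjusted p = 0.0152, passed whichever library was left out), while Col1a2 had 1.15 (limma adjusted p = 0.702); the median was 1.01. The summed level was 217 to 1130.0 in KO and 1401 to 1890 in WT, with 0 markers at 0. That gap is Dcn alone: the other 11 genes summed to 600.2, 22.4 and 42.9 in KO replicates 1 to 3, against 51.8, 72.4 and 34.0 in WT replicates 1 to 3. Dcn was thus lower in every KO library, as were Foxp2 and Sox6, while the sum of the other 11 genes overlapped between the groups. Within WT, Dcn was highest in replicate 3 (1856), where Foxp2 (291) and Sox6 (295) were lowest. The part of fibroblast RNA in the Foxp2 and Sox6 values was not tested. Endothelial markers (12 genes, 1 tested, Pecam1, log2 fold change 0.74, limma adjusted p = 0.283) summed to 64.8 to 85.6 in KO and 28.7 to 52.8 in WT, higher in every KO library, while Sox7 was lower in every KO library. The part of endothelial RNA in the Sox7 value was not tested. Skeletal muscle markers (12 genes, 6 tested, 0 passed, median 1.24, Acta1 and Tnnc2 at 0) summed to 2791, 120 and 514 in KO replicates 1 to 3 and 165 to 380.5 in WT; the lowest p were those of Ckm and Atp2a1 (limma adjusted p = 0.324 and 0.342). Muscle RNA was thus highest in KO replicate 1. KO replicate 3 was also above every WT library, and KO replicate 2 was below every WT library. Without KO replicate 1 the log2 fold change was 2.09 for Sox9, -1.63 for Foxp2 and -1.01 for Sox6. In that fit Sox6 did not pass (limma adjusted p = 0.0744). The part of muscle RNA in these values was not tested.

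Taste bud markers (15 genes, 2 tested, Pou2f3 and Itpr3, 0 passed, median -0.28, Entpd2 at 0) summed to 292 to 421 in KO and 366 to 399.6 in WT. Most of that sum was Itpr3 in every library, at 194 to 319 in KO and 256 to 271 in WT. Salivary gland is known to express Sox9 and Foxa1. Its markers, 13 of 14 in the table, summed to 20.7 to 75.3 in KO and 24.4 to 74.5 in WT. Of these genes 6 were at 0 (Bpifa2, Dcpp1, Dcpp2, Smgc, Pip and Prol1) and 1 was tested, Amy1 (log2 fold change -0.43, limma adjusted p = 0.633). Foxa1 itself was at 7.58 to 13.3 in KO and 23.5 to 37.7 in WT. The part of salivary gland RNA in the Sox9 and Foxa1 values was not tested. Schwann cell and nerve markers (12 genes, 3 tested, 0 passed, median -0.11, Tubb3 at 0) summed to 659 to 798 in KO and 713 to 759 in WT, with the lowest p for Pmp22 and Erbb3 (limma adjusted p = 0.755 and 0.912). Sox10, which marks Schwann cells and melanocytes, held 2 reads in all.

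Melanocyte markers (9 genes, 2 tested, median 2.27, Tyrp1 at 0) had 1 that rose, Mlana, at 26.0, 15.5 and 18.1 in KO replicates 1 to 3, against 0, 0 and 1.31 in WT replicates 1 to 3 (limma adjusted p = 0.0135), a gene that passed the filter through its KO libraries alone, so that it could be refitted only without a WT library (called in 3 of 3 such fits) and its dependence on single KO libraries has no value; Mitf had 0.58 (limma adjusted p = 0.564), and the list summed to 82.0 to 119 in KO and 43.6 to 125 in WT. T cell markers (12 genes, 3 tested, median -0.26) had 1 that rose, Trbc2, a T cell receptor constant region, at 78.7 ± 6.62 in KO and 18.6 ± 5.77 in WT (SD, n = 3 mice each; limma adjusted p = 0.00601), which passed whichever library was left out; Ctla4 had -0.28 (limma adjusted p = 0.674), the list summed to 200.1 to 241 in KO and 159 to 208 in WT, and Foxp3 was at 0, with its 3' end within a gene on the opposite strand. General leukocyte markers (12 genes, 10 tested, 0 passed, median 0.06, Itgam at 0) summed to 905 to 1467 in KO and 773 to 1216 in WT, with the lowest p for Csf1r and H2-Eb1 (limma adjusted p = 0.196 and 0.518).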

How the data were processed

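Library preparation used a 3'-end kit, per the labels' protocols. FastQC, STAR, featureCounts and DESeq2 are named, without versions, in the submitters' processing notes; for build, annotation and strand the answer is: not given in the sources used here. What the authors deposited is 1 normalised count, a linear signal, per gene and library. A further deposited list of 341 genes holds log2 fold changes, a test score and, per the file headers, p-values beside q-values. Every value was a whole multiple of 1 step per library (100% within 0.01 of a whole read), so whole reads were recovered for edgeR 4.0.16 and DESeq2 1.42.0, which were alternatives. Columns carry the labels' library names, and 0 columns were left over.

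Values were transformed to log2(value + 1), a scale that understates changes of low genes. The 10987 of 21778 detected genes with at least 10 in at least 3 libraries were compared, KO against WT, by limma 3.58.1 (intensity trend, R 4.3.3), two-sided, with Benjamini-Hochberg adjustment over all of them at 0.05. The fit was tested on simulated data. With 3 mice against 3 an exact permutation test cannot go below p = 0.1, so none was used. Each mouse counted as 1 sample. Gene positions and overlaps come from GENCODE M21 (GRCm38) and promoters from RefSeq (GRCm38.p6).

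The members and gene lists were chosen with earlier results of these data known. All 6 libraries are given for the called members, the 3 other members with the highest means and the 3 with the lowest p, and for some more chosen after their values were seen. Of each list every called gene and the 2 tested genes with the lowest p are named.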

Additional observations from a re-analysis of the deposited data

How the results depend on the processing

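Over the 16 alternatives to the fit, Sox9 was called higher and Foxp2 lower in each, and no further member was called in any. Members called lower numbered 2, and 1 (Foxp2) with equal totals and with the library name style as a covariate; leaving out 1 library gave 1 to 2. Members called higher numbered 1 throughout, 1 to 1 when 1 library was left out. All genes called numbered 198, against 368 with DESeq2 and 82 with the name style covariate, and 58 to 181 when 1 library was left out (58 without KO replicate 3, 67 without KO replicate 1, 85 without WT replicate 2, 99 without KO replicate 2, 126 without WT replicate 1). The cause was not tested. The medians of all genes moved by less than 0.1 (log2) under each scaling.

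Same-numbered KO and WT libraries share only a number: the correlations of their deviations from the group means were -0.25, 0.03 and 0.28 for numbers 1 to 3, and the highest, 0.41, joined KO replicate 2 and WT replicate 1. With the replicate number as a block, 178 genes, Sox9, Foxp2 and Sox6 among them, were called (limma adjusted p = 0.00425, 0.0140 and 0.0435).

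Signs turned only in members near 0, none of them called: Foxn1 (0.00102 with edgeR and 0.00228 with DESeq2) and, with 1 library left out, Foxn1 ran from -0.10 to 0.0795, Foxn2 ran from -0.46 to 0.27, Foxo6 ran from -0.12 to 0.0810, Foxc1 ran from -0.0430 to 0.51, Foxo4 ran from -0.42 to 0.22, Foxk2 ran from -0.0311 to 0.21, Foxk1 ran from -0.74 to 0.0706, Foxe1 ran from -0.0840 to 0.49 and Sox4 ran from -0.0493 to 0.21. Under the alternatives, 388 member values kept direction and side of the threshold, 7 lost the call (all Sox6) and 17 turned sign. Members under about 10 normalised counts are limited by depth.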
